A study of Mus musculus with 342 samples.

Results

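The genes of the core circadian clock loop were followed in the livers of male Collaborative Cross mice given TAK-875 or its vehicle. The 10 genes were Arntl, Clock, Npas2, Per1, Per2, Per3, Cry1, Cry2, Ciart and Nr1d2, out of 9093 genes with a probe set of their own on the array. A gene entered through probe sets annotated to that gene alone, and where it had several, the one with the highest mean over all arrays was used and the others were kept as a check. Clock and Per3 had 3 such probe sets each, and the other 8 genes had 1 each.

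Each TAK-875 mouse received 1 oral gavage of 600 mg/kg of TAK-875, and each vehicle mouse received methylcellulose in water at 0 mg/kg of drug. TAK-875 (fasiglifam) activates GPR40, a receptor for free fatty acids. All mice were males of about 8 to 10 weeks from 44 inbred lines of the Collaborative Cross, a panel of recombinant mouse lines bred from genetically diverse founders, and livers were taken 24 hours after the dose. Within a line, 1 TAK-875 mouse and 1 vehicle mouse were treated as a study pair, giving 171 pairs and 342 arrays, with 4 pairs in 39 lines and 3 pairs in 5 lines. The labels give no clock time of dosing or harvest and no feeding state. The series title gives another number for the compound, and the sample labels, which name TAK-875, were followed.

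In the core loop the protein of Arntl, BMAL1, pairs with CLOCK or with its relative NPAS2 and activates genes that carry E-boxes, among them the Per and Cry genes, Ciart and Nr1d2. PER and CRY proteins, and CHRONO, the protein of Ciart, then repress BMAL1 and its partners, while REV-ERB beta, the protein of Nr1d2, represses Arntl, Npas2 and Cry1 through ROR elements. In liver these transcripts rise and fall over the day, and Arntl and Npas2 are high when Per3, Ciart and Nr1d2 are low. Because whole liver was measured, fewer cells of a type and less RNA per cell cannot be told apart.

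Promoter sequences are shown first for 5 of the genes, because their letters match motifs that clock proteins are known to bind. RefSeq (GRCm38.p6) gave windows of 250 bases before to 50 bases after a transcript start for 9 of the 10 genes, 13 windows in all. The windows were searched on both strands for the E-box CACGTG, for the D-boxes TTATGNAA and TTACGTAA, which bind DBP, TEF, HLF and the protein of Nfil3, and for TAGGTCA, a site for REV-ERB and ROR proteins. AGGTCA, the shorter site of many nuclear receptors, lies within TAGGTCA and was searched too. Capitals mark the matches, and all 5 sequences run 5′ to 3′ on the gene's strand.
Arntl, chr7:113207261-113207560, plus strand: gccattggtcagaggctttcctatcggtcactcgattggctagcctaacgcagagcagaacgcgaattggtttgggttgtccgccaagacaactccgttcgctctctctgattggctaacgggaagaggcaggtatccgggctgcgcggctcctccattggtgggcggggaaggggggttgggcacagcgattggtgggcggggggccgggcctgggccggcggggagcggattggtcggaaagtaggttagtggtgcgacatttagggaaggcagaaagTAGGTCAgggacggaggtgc
Ciart, chr3:95882179-95882478, minus strand: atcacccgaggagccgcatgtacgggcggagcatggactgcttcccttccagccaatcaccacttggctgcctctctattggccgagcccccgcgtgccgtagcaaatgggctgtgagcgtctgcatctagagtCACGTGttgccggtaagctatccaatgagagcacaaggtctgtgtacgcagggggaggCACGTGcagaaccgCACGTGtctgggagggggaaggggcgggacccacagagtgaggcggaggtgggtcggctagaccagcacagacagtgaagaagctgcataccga
Per3, chr4:151044616-151044915, minus strand: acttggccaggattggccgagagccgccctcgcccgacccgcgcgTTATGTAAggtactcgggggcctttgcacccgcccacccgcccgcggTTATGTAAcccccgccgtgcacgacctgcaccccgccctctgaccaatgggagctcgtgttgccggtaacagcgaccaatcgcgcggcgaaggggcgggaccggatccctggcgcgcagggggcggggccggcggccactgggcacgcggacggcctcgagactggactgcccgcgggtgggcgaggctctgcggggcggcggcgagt
Cry1, chr10:85185005-85185304, minus strand: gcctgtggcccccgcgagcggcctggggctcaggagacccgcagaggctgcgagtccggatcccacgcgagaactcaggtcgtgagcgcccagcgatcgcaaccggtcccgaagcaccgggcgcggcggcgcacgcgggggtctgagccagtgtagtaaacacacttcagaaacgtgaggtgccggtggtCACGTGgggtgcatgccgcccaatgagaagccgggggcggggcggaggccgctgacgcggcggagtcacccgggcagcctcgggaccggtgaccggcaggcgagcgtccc
Per1, chr11:69098699-69098998, plus strand: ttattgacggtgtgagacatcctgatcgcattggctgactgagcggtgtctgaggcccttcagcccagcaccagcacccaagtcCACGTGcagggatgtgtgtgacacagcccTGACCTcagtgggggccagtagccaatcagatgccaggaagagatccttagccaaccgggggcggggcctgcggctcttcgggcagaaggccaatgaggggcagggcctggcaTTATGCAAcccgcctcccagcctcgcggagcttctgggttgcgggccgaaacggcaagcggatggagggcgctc

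Ciart held 3 E-boxes, with first bases at -116, -58 and -44 from the start, Cry1 held 1 at -60 and Per1 held 1 at -166. Of all 32851 promoter windows of this length, 7.15% held CACGTG. Per3 held 2 D-boxes TTATGNAA, at -205 and -158, and Per1 held 1 at -24, a motif found in 3.38% of all windows. TTACGTAA, found in 0.119% of all windows, was not among these letters in any of the 13. TAGGTCA stood at 31 in the Arntl window shown and in 2.61% of all windows, and the other Arntl window, which starts further upstream, held no match. AGGTCA, found in 16.3% of all windows, was also matched in Per1 at -137, in Nr1d2 at -77 and in 1 of the 3 Clock windows at -119. The windows of Npas2 and Cry2 held no match to any of these motifs. A match is a run of letters and does not show that a protein was bound there in these livers.

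Array values are log2 levels per probe set, so a difference of 1 is a doubling, and they compare a gene with itself between mice and not with other genes. Array medians lay between 5.40 and 6.22 in log2, and precision was limited by the number of arrays. Arrays of the same line and treatment correlated at a median of 0.978, and 7 arrays lay under 0.936, the lowest at 0.826. These 7 poorly correlated arrays, 6 from TAK-875 mice and 1 from a vehicle mouse, belonged to 7 study pairs in 7 lines. Results below were recomputed without those pairs, and the outcome is given where it changed a call. The hepatocyte markers Alb, Apoa1, Ttr, Tat, Cyp2e1, Cps1 and Ass1 averaged between 12.3 and 13.0 over the list in every array.

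With TAK-875, 9 of the 10 clock genes changed on average over the 44 lines, 6 higher and 3 lower (limma on line means, Benjamini-Hochberg adjusted p under 0.05 over all genes). Over all genes tested, 27.0% were called in this comparison, 15.2% higher and 11.8% lower. The activator genes Arntl and Npas2 and the repressor gene Cry1 fell, and Per1, Per2, Per3, Cry2, Ciart and Nr1d2 rose. The median difference over all genes was 0.0056 in log2, and centring the arrays or a further quantile normalization moved that median to -0.0092 and -0.0062. The plot of line responses shows each line beside the mean.

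**Figure D1:**
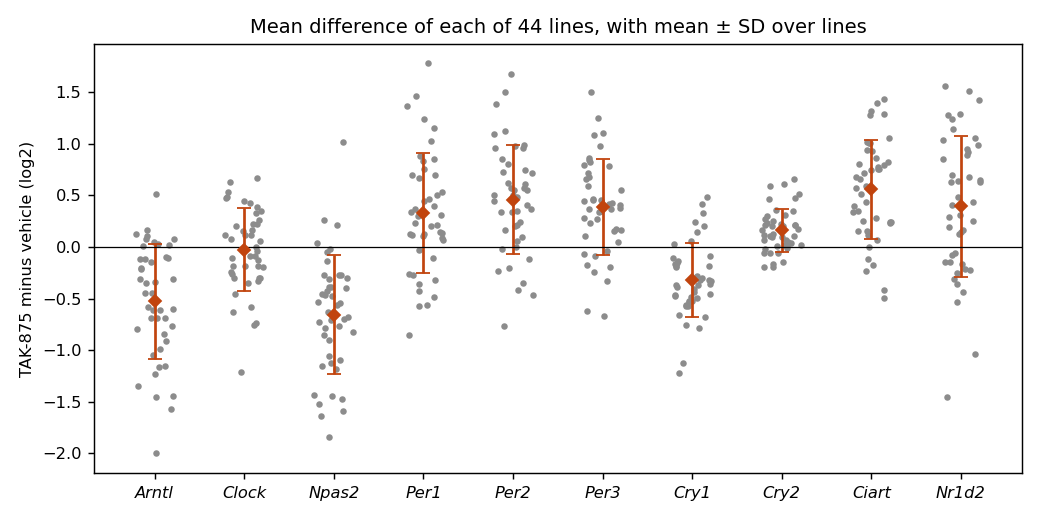
TAK-875 minus vehicle difference in log2 for the 10 clock genes, with 1 grey point for the mean of the study pairs of each of 44 lines and a diamond with bars for the mean ± SD over lines. Most lines lie below 0 for Arntl, Npas2 and Cry1 and above 0 for Per1, Per2, Per3, Cry2, Ciart and Nr1d2, while Clock is spread around 0.

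Among the activators, Npas2 showed the largest fall, though Npas2, like Per2 and Ciart, was among the dimmest 25% of genes. Npas2 read from 2.52 to 6.16 with a median of 3.65 in the 171 TAK-875 mice, against 2.61 to 6.61 with a median of 4.49 in the 171 vehicle mice. The mice of both treatments overlapped over nearly the whole range, and the lower median was that of the TAK-875 mice. Averaged within lines, Npas2 was 3.86 ± 0.58 with TAK-875 and 4.52 ± 0.77 with vehicle (SD, n = 44 lines), a difference of -0.66 ± 0.57 in log2 or 1.575-fold lower, seen in 40 of 44 lines and 137 of 171 pairs (adjusted p = 1.01e-07). Arntl read from 3.05 to 6.94 with a median of 5.84 in TAK-875 mice, against 3.74 to 7.29 with a median of 6.36 in vehicle mice. Its line means were 5.68 ± 0.60 with TAK-875 and 6.21 ± 0.51 with vehicle, a difference of -0.53 ± 0.56, or 1.441-fold lower, in 34 of 44 lines (adjusted p = 2.36e-06).

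Clock, which encodes a partner of BMAL1, behaved differently from Arntl in the probe set used. Its line means were 5.63 ± 0.27 with TAK-875 and 5.65 ± 0.38 with vehicle, a difference of -0.03 ± 0.40 that was positive in 21 lines and negative in 23 (adjusted p = 0.778). The other probe sets of Clock gave -0.14 (adjusted p = 0.023) and -0.17 (adjusted p = 0.0233), with 17 of 44 lines higher in each. The probe sets of Clock therefore differed in call.

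Of the Per genes, which encode the proteins that carry the CRY repressors, all 3 rose. Per2 read from 3.06 to 7.85 with a median of 5.09 in TAK-875 mice, against 2.95 to 6.48 with a median of 4.59 in vehicle mice. Its mean difference over lines was 0.46 ± 0.53, or 1.372-fold higher, in 35 of 44 lines and 121 of 171 pairs (adjusted p = 7.8e-06). Per3 line means were 5.31 ± 0.41 with TAK-875 and 4.92 ± 0.42 with vehicle, a difference of 0.39 ± 0.47 in 35 of 44 lines (adjusted p = 1.55e-05). Its other probe sets gave 0.53 and 0.63, so all 3 probe sets of Per3 rose. Per1 had the smallest rise of the 3 and the widest scatter between pairs, at 0.33 ± 0.58 over lines, higher in 33 of 44 lines but in 97 of 171 pairs (adjusted p = 0.00252).

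The Cry genes, which encode the direct repressors of BMAL1, went in opposite directions. Cry1 read from 4.90 to 8.24 with a median of 6.51 in TAK-875 mice, against 5.29 to 7.91 with a median of 6.80 in vehicle mice, and fell by 0.32 in log2 (SD 0.36, 36 of 44 lines lower, adjusted p = 5.78e-06). Cry2 line means were 6.20 ± 0.28 with TAK-875 and 6.04 ± 0.24 with vehicle, and the rise of 0.16 ± 0.21 was the smallest of the called differences (35 of 44 lines, adjusted p = 0.000124).

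Ciart and Nr1d2, which encode the repressors CHRONO and REV-ERB beta, both rose. Ciart read from 3.48 to 8.19 with a median of 4.79 in TAK-875 mice, against 3.01 to 6.25 with a median of 4.35 in vehicle mice. Its difference of 0.56 ± 0.48, or 1.471-fold higher, held in 38 of 44 lines and was the rise with the lowest adjusted p among the 10 genes, at 3.87e-08. Nr1d2 line means were 7.60 ± 0.67 with TAK-875 and 7.20 ± 0.86 with vehicle, a difference of 0.40 ± 0.68 in 30 of 44 lines (adjusted p = 0.00176).

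**Figure D2:**
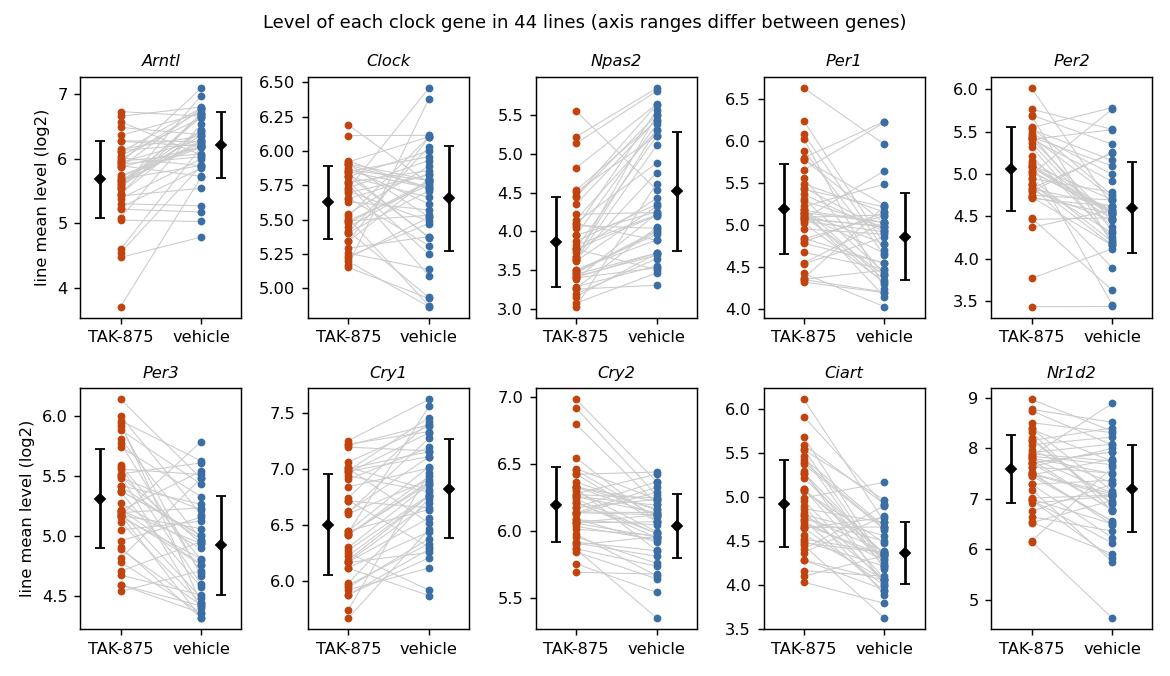
Mean log2 level of each clock gene in each of 44 lines, TAK-875 on the left and vehicle on the right, with a grey line joining the values of 1 line and diamonds with bars for the mean ± SD over lines. The joining lines mostly run up to vehicle for Arntl, Npas2 and Cry1 and down to vehicle for Per2, Per3 and Ciart, and the ranges of both treatments overlap for every gene.

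The 7 poorly correlated pairs stood at the upper end for part of the loop. In their TAK-875 mice the median level was 7.90 for Per1, 7.19 for Ciart, 6.55 for Per2 and 7.20 for Cry2, against 4.55, 4.55, 4.66 and 6.26 for the same genes in their vehicle mice. The highest TAK-875 reading in the whole set of Per1, Per2, Cry2 and Ciart came from these pairs, and that of the other 6 genes did not. Without them, the same 6 genes were called higher and the same 3 lower, and the difference of Clock was 0.0013 (adjusted p = 0.99). The sizes changed, and Per1 and Cry2 rose less on average over lines. Per1 differed by 1.15 with all pairs and by -0.0052 without the pair in CC004/TauUnc, and by 1.78 and 0.64 in CC042/GeniUnc. It was also lower without the pair in CC010/GeniUnc, CC023/GeniUnc, CC027/GeniUnc and CC053/Unc, and it went from -0.85 to -0.56 in CC015/Unc. Cry2 was lower without the pair in each of the 7 lines, at 0.05 against 0.61 in CC004/TauUnc.

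Across lines the direction of the 9 called genes was shared by many lines, as the map of lines and genes shows. In 12 of 44 lines all 9 genes lay on the side of their mean, in 25 lines at least 8 did, and in 5 lines at most 4 did. Those directions were taken from the same lines, so the counts describe them and do not test them. CC030/GeniUnc was the line in which none of the 9 followed the mean over its 4 pairs, and it was singled out after its values were seen. Its count of 0 rested on small differences, since Arntl there differed by 0.04 ± 1.20, from -0.24 to 0.61 when 1 pair was left out, and Cry2 by -0.16 ± 0.43, from -0.26 to 0.05. Its 4 vehicle mice had the highest line mean of all vehicle groups for Per2, Per3, Ciart and Nr1d2. In that line Per3 averaged 5.17 ± 0.44 in TAK-875 mice and 5.79 ± 0.42 in vehicle mice (SD, n = 4 each), and Nr1d2 averaged 7.85 ± 1.23 in TAK-875 mice and 8.89 ± 0.64 in vehicle mice. The Nr1d2 difference of -1.04 was carried largely by 1 pair, and it ran from -1.41 to -0.34 when 1 pair was left out. No gene of the loop was called in that line, where 0.297% of all genes were called.

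**Figure D3:**
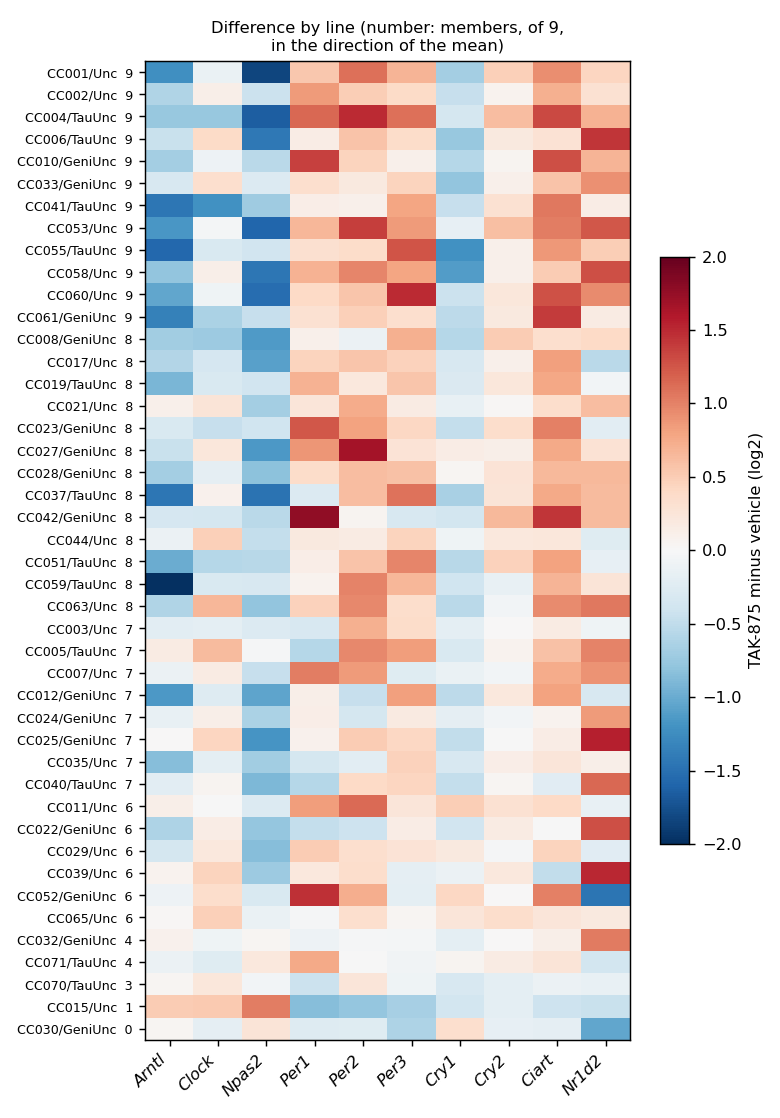
TAK-875 minus vehicle difference in log2 (colour, from -2 to 2) for each clock gene in each of 44 lines, sorted by how many of the 9 genes called over all lines lay on the side of their mean (number beside the line). The 12 lines at the top show all 9, and CC015/Unc with 1 and CC030/GeniUnc with 0 stand at the bottom.

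The response differed between lines for Npas2, Arntl and Per3 (limma F test over lines). The SD of the response between lines, after the scatter of pairs within a line was subtracted, was 0.44 in log2 for Npas2 (adjusted p = 0.00751), 0.40 for Arntl (adjusted p = 0.0194) and 0.31 for Per3 (adjusted p = 0.0357), against a median of 0.12 over all genes. Such a difference between lines was called for 14.8% of all genes and for 3 of these 10. Nr1d2 had an SD between lines of 0.40, as large as that of Arntl, but was not called (adjusted p = 0.0906). Per2 had an SD between lines of 0.34 with an adjusted p of 0.0539, and Cry2, at 0.00, had no scatter beyond that of pairs within lines. The call for Per3 was not reached without the 7 poorly correlated pairs (adjusted p = 0.0547), and leaving out 1 pair number from every line left 0 to 1 of the 3 calls.

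Npas2, the gene with the largest SD between lines, was lowest relative to vehicle in CC001/Unc and highest in CC015/Unc. In CC001/Unc, Npas2 read 3.98, 3.24, 4.06 and 3.37 in the TAK-875 mice, against 4.49, 5.63, 5.98 and 5.92 in the vehicle mice of pairs 1 to 4. All 4 TAK-875 mice lay below all 4 vehicle mice, and the difference of -1.84 ± 0.93 (SD, n = 4 pairs) was called within the line (limma adjusted p = 0.0096), ranging from -2.29 to -1.60 when 1 pair was left out, in a line with 0.176% of all genes called. In CC015/Unc, Npas2 read 5.12, 5.93, 5.01 and 6.16 in the TAK-875 mice, against 3.17, 5.92, 3.42 and 5.63 in the vehicle mice. The vehicle mice of that line were low in pairs 1 and 3 and high in pairs 2 and 4, the TAK-875 mice were all high, and the difference of 1.02 ± 0.90 was not called (limma adjusted p = 0.143). The vehicle array of pair 3 was 1 of the 7 poorly correlated arrays, and without that pair the difference was 0.83 (limma adjusted p = 0.771).

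Some other genes of the loop divided the CC015/Unc vehicle mice in the same way. Arntl there read 6.75, 6.63, 6.23 and 6.67 in TAK-875 mice, against 5.34, 7.00, 5.33 and 6.56 in vehicle mice. Per2, which runs opposite to Arntl in the cycle, read 5.08, 4.97, 4.10 and 5.83 in TAK-875 mice, against 6.48, 4.86, 6.38 and 5.34 in vehicle mice. The vehicle mice of pairs 1 and 3 thus had low Npas2, low Arntl and high Per2, and those of pairs 2 and 4 had the opposite readings. Cry1 showed no such division, at 7.46, 7.50, 6.59 and 7.45 in TAK-875 mice, against 7.67, 7.62, 7.46 and 7.71 in vehicle mice, and Nr1d2 was high in the vehicle mouse of pair 3, at 7.64, against 6.88, 6.74 and 6.62 in the other vehicle mice.

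Within single lines, 9 of the 440 combinations of line and clock gene were called, 3 higher and 6 lower, against 1.56% of all combinations of line and gene. Leaving out 1 pair number gave 3 to 7 falls. Without the 7 poorly correlated pairs, a refit chosen after the data were seen, 9 were again called, against 1.9% of all combinations. Of these, 5 were the same, so 4 were lost and 4 others were gained. Gained were Ciart in CC041/TauUnc (1.06, limma adjusted p = 0.0373) and Per1 in CC052/GeniUnc (1.46, limma adjusted p = 0.029). Arntl in CC055/TauUnc (-1.57, limma adjusted p = 0.0359) and Npas2 in CC058/Unc (-1.44, limma adjusted p = 0.0407) were gained too. With all pairs, and besides CC001/Unc, Npas2 fell in CC004/TauUnc by 1.64 (SD 0.79, n = 4 pairs, limma adjusted p = 0.0115). In CC053/Unc it fell by 1.59 (SD 0.62, n = 3 pairs, limma adjusted p = 0.024). These lines had 1.02% and 4.08% of all genes called. Each of these lines held a poorly correlated TAK-875 array, and without that pair the Npas2 difference was -1.29 in CC004/TauUnc (limma adjusted p = 0.217) and -1.29 in CC053/Unc (limma adjusted p = 0.444). Arntl fell in CC059/TauUnc, where it read 3.23, 4.20, 3.13 and 4.30 in TAK-875 mice, against 5.80, 5.98, 5.14 and 5.93 in vehicle mice. The treatments did not overlap there, and the difference of -2.00 ± 0.41 was the largest of the 9 (limma adjusted p = 0.0007), in a line with 0.297% of all genes called. In CC041/TauUnc, where 15.2% of all genes were called, both Arntl (-1.44 ± 0.57) and Clock (-1.21 ± 0.59) fell.

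With all pairs, the rises called within lines were in Per genes. Per3 in CC060/Unc read 6.67, 5.46, 6.23 and 5.39 in TAK-875 mice, against 4.49, 4.40, 4.00 and 4.87 in vehicle mice (difference 1.50 ± 0.85, limma adjusted p = 0.0269), where 0.0660% of all genes were called. Per2 in CC027/GeniUnc averaged 5.13 ± 1.01 with TAK-875 and 3.46 ± 0.33 with vehicle (limma adjusted p = 0.043), where 0.0990% of all genes were called. The difference there was 1.67, and it was 1.07 without the pair that held a poorly correlated TAK-875 array (limma adjusted p = 0.792). Per2 in CC004/TauUnc averaged 5.68 ± 1.55 with TAK-875 and 4.18 ± 0.46 with vehicle (limma adjusted p = 0.0324), and 1 TAK-875 mouse at 7.85 carried much of that mean, with 1.50 for the difference over 4 pairs and 0.94 without that pair, whose TAK-875 array was poorly correlated (limma adjusted p = 0.572). The treatments did not overlap in 8 of the 9 combinations, and Per2 in CC004/TauUnc was the exception. The combinations were picked by their calls on the same values, so the lack of overlap describes them and does not test them.

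Vehicle mice alone differed between lines in all 10 genes (limma F test), as did 98.0% of all genes, and the call of Ciart was lost in 1 of the 4 fits that left out a pair number. Since the labels give no clock time of harvest, line and time of harvest cannot be told apart in these differences. Npas2 had the largest share of its variance between lines, at 60.5%, with line means from 3.30 in CC070/TauUnc to 5.85 in CC024/GeniUnc, and Ciart the smallest, at 14.9%, from 3.62 in CC017/Unc to 5.16 in CC030/GeniUnc. Arntl line means ran from 4.79 in CC033/GeniUnc to 7.09 in CC053/Unc, with 41.8% of the variance between lines. The widest range was that of Nr1d2, with line means from 4.64 in CC039/Unc to 8.89 in CC030/GeniUnc. Ordered by level, each gene had 43 steps between neighbouring lines. No step exceeded the within-line SD except that from CC039/Unc to CC006/TauUnc for Nr1d2, of 1.12 against an SD of 0.89. That step did not exceed 2 SE of the difference between the line means, so it does not set CC039/Unc apart.

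Mice of the same line and treatment also differed from each other in these genes. The within-line SD of vehicle mice was 0.89 for Nr1d2, 0.61 for Per1, 0.58 for Npas2, 0.53 for Ciart, 0.51 for Arntl, 0.51 for Per3, 0.49 for Per2, 0.42 for Clock, 0.40 for Cry1 and 0.24 for Cry2, and the median over all genes was 0.28. All except Cry2 lay above that median, with Nr1d2 at percentile 99.5 of all genes. In TAK-875 mice the within-line SD of Cry1 was 0.51, against 0.40 in vehicle mice, a mean log2 ratio of 0.555 that was higher in 32 of 44 lines (limma adjusted p = 0.0492). Cry1 was the 1 of the 10 genes called for spread, as were 1.25% of all genes, 1.24% with the higher SD in TAK-875 mice, and the call was lost with centred arrays (adjusted p = 0.199), with quantile normalization (adjusted p = 0.101), without the poorly correlated pairs (adjusted p = 0.278) and on leaving out any of the 4 pair numbers.

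Among vehicle mice of a line, the loop genes moved with Arntl in both directions. For these relations each mouse was set against the mean of its line, and the slope of every gene on Arntl was fitted. Of the other 9 clock genes, 6 were called, 3 rising and 3 falling with Arntl, against 22.1% of all genes, of which 16.1% rose and 5.95% fell. The strongest was Per3, with a slope of -0.63 (SE 0.07) and a correlation of -0.63 over 171 mice (adjusted p = 6.07e-13). Its rank correlation was -0.59, the permutation p of either was 0.00001, the smallest that 100000 permutations within lines can give, and r was -0.61 without the 2 mice farthest in Arntl. Npas2 (r = 0.50, rho = 0.57) and Cry1 (r = 0.48, rho = 0.50), whose genes like Arntl answer to REV-ERB proteins, rose with Arntl, with adjusted p of 3.81e-07 and 1.83e-06.

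Ciart fell with Arntl among vehicle mice (r = -0.47, rho = -0.41, adjusted p = 5.11e-06), as did Per2 (r = -0.31, rho = -0.30, adjusted p = 0.00571). Clock rose with Arntl (r = 0.29, rho = 0.24, adjusted p = 0.00851). Per1 (r = -0.08, rho = -0.09, adjusted p = 0.53), Cry2 (r = -0.16, rho = -0.14, adjusted p = 0.191) and Nr1d2 (r = -0.18, rho = -0.24, adjusted p = 0.117) were not called by the slope fit. For Nr1d2 the permutation p within lines was 0.07 for r and 0.00711 for rho. Clock and Nr1d2 also moved with the median of the array, at r = 0.63 and 0.44 in vehicle mice. Once arrays were centred on their medians, the call of Clock was lost (adjusted p = 0.206) and that of Nr1d2 was made (adjusted p = 0.0226), and quantile normalization gave the same changes. The part of array-wide shifts in the remaining relations was not tested further than by these scalings, under which the other calls stood. Leaving out each of the 4 pair numbers in turn lost the call of Clock once and that of Per2 in 2 fits.

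**Figure D4:**
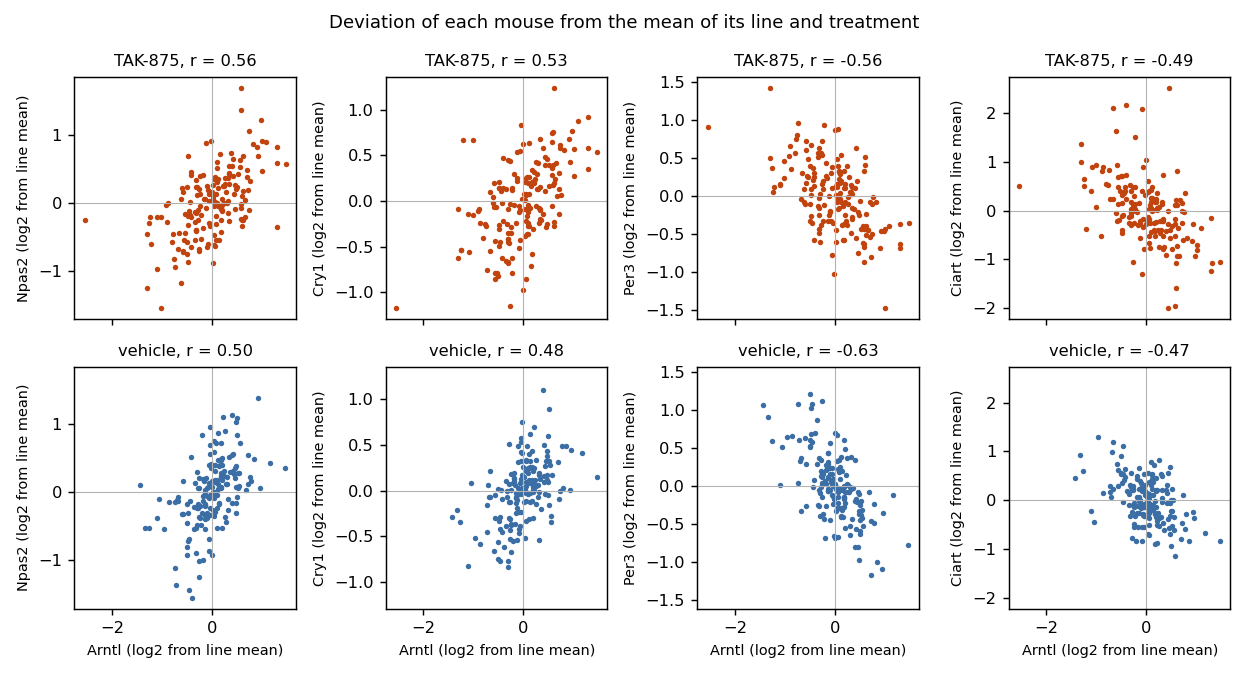
Deviation of each mouse from the mean of its line and treatment in log2, for Arntl on the horizontal axis and Npas2, Cry1, Per3 and Ciart on the vertical axis, with 171 TAK-875 mice in the upper row and 171 vehicle mice in the lower row. Npas2 and Cry1 rise and Per3 and Ciart fall with Arntl in both rows, with r printed above each panel.

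Among TAK-875 mice of a line, all 9 clock genes were called against Arntl, 3 rising and 6 falling, where 15.6% of all genes were called, 11.9% rising and 3.75% falling. The correlations were 0.56 for Npas2, 0.53 for Cry1 and 0.33 for Clock, and -0.56 for Per3, -0.49 for Ciart, -0.32 for Per2, -0.32 for Cry2, -0.27 for Per1 and -0.25 for Nr1d2. Per1, Cry2 and Nr1d2, called here and not in vehicle mice, were not shown to differ between treatments. The slopes on Arntl were compared directly, and 0 of the 9 clock genes were called by limma, against 0.297% of all genes, with 1 at an unadjusted p under 0.05. That 1 was Per3, with a slope of -0.42 in TAK-875 mice and -0.63 in vehicle mice, a difference of 0.21 (SE 0.09, adjusted p = 0.222). The call of Clock was again lost with centred arrays (adjusted p = 0.0742) and with quantile normalization (adjusted p = 0.0542). Leaving out 1 pair number gave 2 to 6 falling clock genes.

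The relations among the other genes of the loop are drawn in the pair of correlation maps, with 45 pairs of genes for each treatment. The strongest correlation in vehicle mice apart from those with Arntl was between Cry1 and Nr1d2, at -0.57 in TAK-875 mice and -0.60 in vehicle mice. Nr1d2 ran against Npas2 too, at -0.51 in TAK-875 mice and -0.50 in vehicle mice, while Npas2 and Cry1 rose together, at 0.38 in TAK-875 mice and 0.53 in vehicle mice. Per3 and Ciart rose together, at 0.32 in TAK-875 mice and 0.53 in vehicle mice. Without the poorly correlated pairs, their correlation was 0.54 in TAK-875 mice and 0.57 in vehicle mice. Clock rose with Nr1d2, at 0.37 in TAK-875 mice and 0.45 in vehicle mice, and with centred arrays these correlations were 0.29 in TAK-875 mice and 0.36 in vehicle mice. For each of these 5 pairs of genes in vehicle mice, r and rho both had a permutation p of at most 0.00002.

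**Figure D5:**
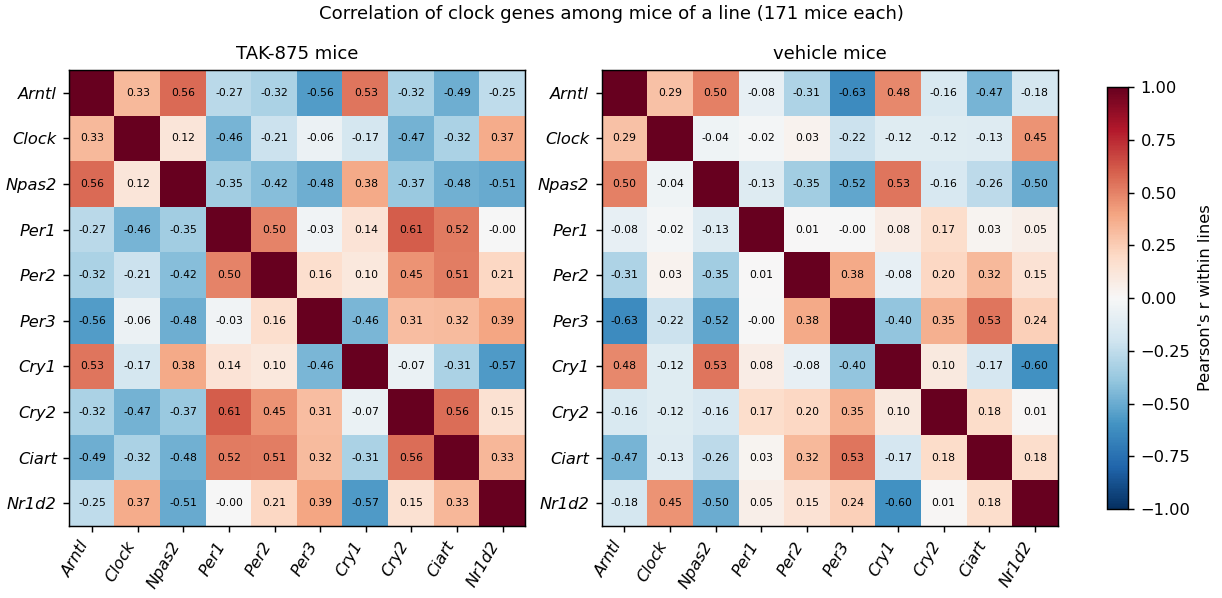
Pearson's r between clock genes over 171 mice per treatment after subtraction of the mean of each line, with TAK-875 mice on the left and vehicle mice on the right. Arntl, Npas2 and Cry1 are positively related to each other on both sides, and the cell of Per1 with Cry2 is at 0.61 in TAK-875 mice and 0.17 in vehicle mice.

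With all pairs included, the correlations of Per1 with 4 of the other loop genes differed between treatments. With Cry2 the correlation was 0.61 in TAK-875 mice and 0.17 in vehicle mice, and with Ciart it was 0.52 in TAK-875 mice and 0.03 in vehicle mice. With Per2 it was 0.50 in TAK-875 mice and 0.01 in vehicle mice, and with Clock -0.46 in TAK-875 mice and -0.02 in vehicle mice. With Per3 it was -0.032 in TAK-875 mice and -0.0039 in vehicle mice, and with Nr1d2 it was -0.0005 in TAK-875 mice and 0.0548 in vehicle mice. In the difference of slopes on Per1 between treatments, a test added after these correlations were seen, those 4 genes were called by limma, with adjusted p of 0.00265 for Cry2, 0.00156 for Ciart, 0.00315 for Per2 and 0.0132 for Clock. The same test called 22.5% of all genes. It was also run with each other clock gene in the place of Per1. On Clock it called 19% of all genes and on Per2 26.8%, with Per1 and Cry2 the clock genes called on either. Without the 7 poorly correlated pairs the test on Per1 called 0 of the 9 clock genes, the lowest adjusted p being 0.427, and 0.0110% of all genes. On Clock 0.022% of all genes were called without those pairs, and on Per2 5.88%. The correlations of Per1 were then 0.37 with Cry2, 0.26 with Ciart, 0.32 with Per2 and -0.29 with Clock in TAK-875 mice, against 0.23, 0.03, 0.0024 and 0.02 for the same genes in vehicle mice.

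Across lines, 5 clock genes responded with or against Arntl. The response of each line was fitted on that of Arntl, both taken from the same arrays. Clock (slope 0.41), Npas2 (0.51) and Cry1 (0.33) responded in the direction of Arntl, and Per3 (-0.58) and Ciart (-0.51) against it, so 5 of 9 clock genes were called, against 12.4% of all genes, with 11.1% rising and 1.35% falling. Over 44 lines the correlation with the Arntl response was -0.70 for Per3 (rho = -0.70, permutation p = 0.00001, r = -0.70 without the 2 farthest lines) and -0.59 for Ciart (rho = -0.61, permutation p = 0.00002). Per1, Per2, Cry2 and Nr1d2 were not called (adjusted p between 0.151 and 0.795). With centred arrays the calls of Npas2 and Cry1 were lost (adjusted p = 0.0795 and 0.0745), as they were with quantile normalization (adjusted p = 0.0516 and 0.0512), and those of Clock, Per3 and Ciart stood.

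The same fit gave a fitted difference of each gene at an Arntl difference of 0. The Arntl responses had an SD over lines of 0.56, and of 0.40 after the scatter of pairs was subtracted. The fit took no account of that scatter, so the differences below need not be those at an unchanged Arntl. At an Arntl difference of 0, Npas2 had a difference of -0.39 (SE 0.11, adjusted p = 0.00769). Per2 (0.36, adjusted p = 0.0125), Ciart (0.29, adjusted p = 0.00991) and Clock (0.19, adjusted p = 0.0377) were higher, against 21.8% of all genes called, 14.1% higher and 7.66% lower. Per3, with 0.08 (SE 0.07), was not called (adjusted p = 0.422). The 3 higher calls were lost with centred arrays, with adjusted p of 0.0539 for Per2, 0.0726 for Ciart and 0.134 for Clock, and that of Npas2 stood. Leaving out 1 pair number gave 1 to 4 higher calls.

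The 2 mice of a study pair were compared for shared deviations from their line. By the test of that partial correlation given line, 0 of the 10 clock genes were called after adjustment over all genes, and 3 had an unadjusted p under 0.05, namely Nr1d2 (r = 0.24), Npas2 (r = 0.21) and Arntl (r = 0.18). Of all genes, 0.715% were called and 9.89% had an unadjusted p under 0.05, and the median r over all genes was 0.043.

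Some genes outside the loop followed Arntl more closely than its members did. Ranked by correlation with Arntl among the 171 vehicle mice, the highest 5 of 9083 genes were Lgalsl (0.74), Chka (0.70), Pnrc1 (0.69), Nfil3 (0.65) and C730049O14Rik (0.62), and the lowest 5 were Dbp (-0.78), Tef (-0.66), Tns2 (-0.65), 2900026A02Rik (-0.61) and Slc38a3 (-0.52). Chka encodes a choline kinase, Nfil3 a repressor at D-boxes, and Dbp and Tef activators at D-boxes. Of these, 7 had a correlation larger in size than that of any member. With TAK-875, Lgalsl (-0.41 ± 0.44), Chka (-0.16 ± 0.35), Pnrc1 (-0.27 ± 0.24), Nfil3 (-0.49 ± 0.54) and C730049O14Rik (-0.56 ± 0.40) fell with Arntl, and Dbp (1.32 ± 1.15), Tef (0.56 ± 0.40), Tns2 (0.31 ± 0.37) and 2900026A02Rik (0.19 ± 0.30) rose. Slc38a3, an amino acid transporter gene, had a difference of -0.03 ± 0.16 that was not called (adjusted p = 0.361).

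Further genes of the clock pathway were read against the 15.2% of all genes that rose and the 11.8% that fell. Of 11 measured output genes, 7 rose and 2 fell, with a median difference of 0.13, and besides Dbp, Tef and Nfil3 the largest were Usp2 (0.56 ± 0.52), Noct (0.47 ± 0.77) and Coq10b (0.34 ± 0.50). Of 15 measured feedback genes and modifiers of clock proteins, among them Rora, Bhlhe40, Csnk1d and Csnk1e, 0 rose and 1 fell, Prkaa2 by 0.11 (SD 0.28, limma adjusted p = 0.0401), and their median difference was 0.02. Prkaa2 encodes a catalytic subunit of the AMP-activated kinase. Related to Arntl among vehicle mice were 4 of the output genes and 4 of the feedback genes and modifiers, against 22.1% of all genes.

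Lists that can move with clock genes in liver were read in the same samples, again beside 15.2% of all genes higher and 11.8% lower. Of 10 glucocorticoid targets, 2 rose and 3 fell, the largest being Fkbp5 (0.36 ± 0.43) and Dusp1 (-0.22 ± 0.47). Of 8 heat shock and cold genes, 6 rose and 0 fell, the largest being Hspb1 (0.49 ± 0.44) and Hsp90aa1 (0.47 ± 0.98). Of 11 feeding and fasting genes, 3 rose and 2 fell, the largest being Pklr (-0.58 ± 0.40), a glycolytic enzyme gene, and G6pc (-0.50 ± 0.45), a gluconeogenic one. Among vehicle mice, 5 of the glucocorticoid targets, 1 of the heat shock and cold genes and 4 of the feeding and fasting genes were related to Arntl. Of all genes, 22.1% were. The part of these lists in the differences of the clock genes was not tested.

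Markers of other liver cells were read beside the same shares of all genes, 15.2% higher and 11.8% lower. Of 7 Kupffer cell markers, 0 rose and 6 fell, and the mean level of that list ran from 4.82 to 7.90 over TAK-875 arrays and from 5.48 to 8.22 over vehicle arrays. Of 6 endothelial markers 3 fell and of 6 stellate markers 2 fell, and none rose. None of the 7 Kupffer and 6 endothelial markers was related to Arntl among vehicle mice, where 2 of the 6 stellate markers, 1 of the 7 hepatocyte markers and 22.1% of all genes were. Of 7 hepatocyte markers 3 rose and 2 fell, and Tat stands in that list and among the glucocorticoid targets. No marker of cholangiocytes, neutrophils, B cells or T and NK cells was called among the 6 measured, and both measured markers of red blood cells fell. The part of cell composition in the clock gene differences was not tested.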

How the data were processed

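Liver RNA of each mouse was hybridised to 1 Affymetrix array, per the labels' protocols. The deposited values are log2 levels per probe set. The submitters' processing notes name RMA, which corrects background, normalizes arrays and summarises probes, and Affymetrix Power Tools, without versions. Array medians still differed, so centring and a further quantile normalization were tried. No filter on dim probe sets was set.

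Of 16397 probe sets, 13083 name 1 gene in the platform's table, and 9093 genes were tested with limma 3.58.1 in R 4.3.3 (two-sided, eBayes with a variance trend except for the test of spread, tested on simulated data). A call means a Benjamini-Hochberg adjusted p under 0.05 over all genes. The line was the unit for mean differences. Mice were permuted within lines, and line responses across lines, in Python 3.11.15 (pandas 2.3.3, numpy 2.4.6).

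Study pairs come from the labels, and shared deviations within pairs had a median r of 0.043 over all genes. Poorly correlated arrays lay more than 3 interquartile ranges below the quartile of array correlations. Members and lists were chosen with earlier results of these data known. Named genes were the 10 members, up to 6 other clock genes and 2 genes of each further list by size of change, the 5 highest and 5 lowest correlates of Arntl, and the extreme lines of the member whose response varied most.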

Additional observations from a re-analysis of the deposited data

Results flagged for a closer look

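The response to TAK-875 differed between lines by the F test for Npas2, with an SD between lines of 0.4375 in log2, for Arntl, with 0.3954, and for Per3, with 0.3127. In CC015/Unc, 1 of the 4 TAK-875 mice stood apart from the others in Cry1, at 6.5897 against 7.46, 7.50 and 7.45. That mouse belongs to 1 of the 7 study pairs with a poorly correlated array, which in this pair is the vehicle one. Chance alone sets a mouse apart in this way in about 1 in 20 groups of 4. Every clock gene was searched for such mice in both treatments of CC015/Unc and CC001/Unc, so 1 such mouse can arise by chance.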

How the results depend on the processing

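The rise of 6 and fall of 3 clock genes over lines kept their direction and call under every alternative that tested them, and leaving out the dimmest 25% of genes removed Npas2, Per2 and Ciart from all tests. Clock alone turned, to 0.0013 without the poorly correlated pairs and over a range of -0.1202 to 0.0108 when 1 pair number was left out, and it was not called in either. With the study pair as the unit, which is the replicate block, Npas2 was -0.65 and 3069 genes were called, and with the mouse as the unit and no replicate block 3081 were called, against 2459 with the line as the unit, and the pairing changed no call of a clock gene.

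The number of genes related to Arntl depended on scaling. Among vehicle mice it was 2008 as reported, 373 with centred arrays, 833 after quantile normalization and 1283 by rank correlation, and among TAK-875 mice 1420, 593 and 720 for the first 3 of these. Without the dimmest 25%, 1 clock gene fell with Arntl among vehicle mice. The difference of slopes on Arntl was called for 27 genes as reported, 2 with centred arrays, 48 without the dimmest 25% and 58 without the poorly correlated pairs, with 0 clock genes called in each. Responses across lines followed that of Arntl in 1129 genes as reported, 68 with centred arrays and 138 after quantile normalization, with 1 clock gene rising in either and 1 falling without the dimmest 25%. At a fitted Arntl difference of 0, 0 clock genes were higher with centred arrays and 0 after quantile normalization, and without the dimmest 25% 1 was higher and 0 lower. Spread was called for 114 genes as reported, 24 with centred arrays, 70 after quantile normalization and 4 without the poorly correlated pairs, with 0 clock genes in each of these 3. Within single lines, 1 rise of a clock gene was called without the dimmest 25%, and 5 of the 9 called combinations were also called without the poorly correlated pairs. Differences of slopes on Per1 were called for 4 clock genes and 2049 genes with all pairs, and for 0 clock genes and 1 gene without the poorly correlated pairs. The cause of these shifts was not tested, except that leaving out dim genes leaves fewer clock genes to test.

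Leaving out 1 pair number at a time also leaves fewer mice. It gave 83 to 513 genes and 0 to 1 clock genes for the difference between lines, 72 to 2040 genes for the relation to Arntl among vehicle mice, and 294 to 1446 genes with 2 to 6 falling clock genes among TAK-875 mice. It gave 0 to 2 genes for the difference of slopes and 177 to 1350 for responses across lines. At a fitted Arntl difference of 0 it gave 1278 to 1795 genes, with 1 to 4 clock genes higher and 1 to 2 lower. Pair deviations were called for 2 to 77 genes, spread for 2 to 27 genes and 0 clock genes, and line and gene combinations for 2902 to 7237 with 3 to 7 falls of clock genes. The slope of the Per1 response ran from -0.2439 to 0.0696 and was called in none of these.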
